A study of Mus musculus with 11 samples.

Results

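The expression of 5 signaling genes of striatal projection neurons was followed from normal mouse brain into tumors made by 2 oncogenes. The genes were Drd2 (dopamine D2 receptor), Adora2a (an adenosine receptor), Ppp1r1b (DARPP-32), Rgs9 and Pde10a. They were taken by symbol from a table of 24320 genes, and each symbol had 1 entry. RNA was sequenced from 11 libraries: 3 of normal brain, labelled as wild-type controls, 4 of NRAS tumors and 4 of PDGFB tumors. Tumors arose after plasmids were injected into the right lateral ventricle of newborn mice. In both models the plasmids carried the Sleeping Beauty transposase, which inserts a transposon into the genome of the cells it reaches, firefly luciferase and the SV40 large T antigen, with either the constitutively active NRAS G12V or PDGFB added. At mid-stage the tumor region was cut out by its green fluorescence. The series text names FVB mice, whereas the sample labels give B6 for all libraries but normal brain 3, which is labelled FVB. No promoter, age or brain region is stated, and it is not stated that each library is from its own animal. The p-values below thus refer to the spread among these libraries, which may be technical. The titles pair normal brain 1 with NRAS tumor 2 and normal brain 3 with PDGFB tumor 1.

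Medium spiny projection neurons make up most neurons of the striatum and integrate dopamine with cortical and thalamic input. In direct pathway neurons the D1 receptor raises cyclic AMP, whereas in indirect pathway neurons the D2 receptor lowers it and the receptor encoded by Adora2a raises it. Cyclic AMP activates protein kinase A, which turns DARPP-32 into an inhibitor of protein phosphatase 1. PDE10A breaks down cyclic AMP and cyclic GMP, and the striatal form of RGS9 ends signaling through the G proteins of the D2 receptor. Drd2 and Adora2a mark the indirect pathway, while Ppp1r1b, Rgs9 and Pde10a are shared by both pathways.

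On the GRCm38.p6 assembly the genes lie on 4 chromosomes, and all are protein-coding. Drd2 spans chr9:49340360-49408177, Adora2a chr10:75316877-75334792, Ppp1r1b chr11:98348406-98357796 and Pde10a chr17:8525187-8986648, each on the plus strand. Rgs9 spans chr11:109225348-109298181 on the minus strand. An exon of 1700003D09Rik, a transcript on the opposite strand, overlaps one of Ppp1r1b, and whether the libraries kept strand is not given. That gene was at 2.81 ± 1.68 FPKM in normal brain (SD, n = 3), against 158 for Ppp1r1b. In tumors Ppp1r1b was lower, at 5.58 to 54.0 FPKM, and the part of the overlap in its values was not tested.

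Promoter windows matched 3 of the 5 genes, not Adora2a or Ppp1r1b. The 250 bases before a start site are shown for Drd2 and Rgs9. Drd2 had the largest fold fall of mean FPKM in tumors, and Rgs9 was the only member called between the models. The sequences are from RefSeq on GRCm38.p6, chr9:49340153-49340402 on the plus strand and chr11:109298182-109298431 on the minus strand. The Drd2 window ends inside the span of the gene given above, so its start site is not the first base of that span. Capitals mark matches on either strand to the GC box GGGCGG (also CCGCCC), the TATA box TATAAA and the CCAAT box (also ATTGG).
Drd2: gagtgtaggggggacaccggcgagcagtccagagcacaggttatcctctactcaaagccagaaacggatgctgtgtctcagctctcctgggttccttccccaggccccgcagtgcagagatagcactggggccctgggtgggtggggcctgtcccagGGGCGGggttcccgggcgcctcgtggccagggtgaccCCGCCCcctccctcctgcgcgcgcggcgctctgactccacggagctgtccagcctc
Rgs9: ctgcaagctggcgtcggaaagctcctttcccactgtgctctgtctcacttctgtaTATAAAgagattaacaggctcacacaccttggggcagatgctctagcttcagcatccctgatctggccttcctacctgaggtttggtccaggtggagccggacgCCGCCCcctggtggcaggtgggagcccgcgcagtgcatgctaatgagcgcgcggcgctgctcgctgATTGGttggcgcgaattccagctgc
The Drd2 window held 2 GC boxes and the Rgs9 window held 1, together with 1 TATA box and 1 CCAAT box. In the Rgs9 window these TATA letters began 195 bases before the start site. Of 32851 windows of the same length, 32.7% held a GC box, 12.4% the TATA letters and 33.8% a CCAAT box. GC content was 68.8% for Drd2 and 59.6% for Rgs9, where the median window had 52.4%. Pde10a had 2 windows, chr17:8801495-8801744 and chr17:8849735-8849984. Both lie inside the span of the gene given above, and no window was matched at the start of that span. The first had 72.8% GC, 21 CpG dinucleotides and 1 GC box, the second 56% GC, 4 CpG dinucleotides and 1 CCAAT box. None of the 4 windows held the cyclic AMP response element TGACGTCA, present in 1.55% of all windows, or the EGR letters GCGGGGGCG, present in 2.57%.

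All 5 genes were highest in normal brain, and for each of them every tumor library lay below every normal library. Of 14491 genes tested, 31.9% lay below normal brain without overlap in NRAS tumors and 32% in PDGFB tumors. Drd2, the receptor through which dopamine lowers cyclic AMP, was at 12.2, 12.8 and 27.1 FPKM, read fragments per length of transcript and size of library, in normal brains 1 to 3. The NRAS tumors, numbered 1 to 4, held 0.373, 0.339, 0.659 and 0.712 FPKM, and the PDGFB tumors 3.02, 0.383, 0.144 and 0.419 FPKM. Of the 8 tumor libraries, 7 were thus below 1 FPKM, a level that rests on few reads, and PDGFB tumor 1 stood apart. Adora2a, the receptor that opposes Drd2 in the same neurons, was at 9.34, 14.04 and 28.9 FPKM in normal brain. Its NRAS values were 3.14, 2.09, 2.31 and 3.67 FPKM, and its PDGFB values 6.15, 1.52, 3.05 and 2.08 FPKM. The PDGFB values lay on both sides of the NRAS range, and PDGFB tumor 1 was again the highest.

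Ppp1r1b, the integrator of dopamine and glutamate signals, was the most abundant member in 10 of the 11 libraries (Rgs9 was in PDGFB tumor 2), with 88.6, 127 and 258 FPKM in normal brain. Its values were 5.58, 22.2, 15.2 and 12.5 FPKM in NRAS tumors and 54.0, 8.87, 16.3 and 27.1 FPKM in PDGFB tumors. The tumor groups overlapped, with the lowest value in NRAS tumor 1 and the highest in PDGFB tumor 1. Rgs9 was at 17.6, 33.3 and 51.3 FPKM in normal brain, at 4.36, 3.91, 5.98 and 2.69 FPKM in NRAS tumors, and at 16.1, 10.6, 9.51 and 6.29 FPKM in PDGFB tumors. It was the only member whose 3 groups kept apart, although PDGFB tumor 1 came close to normal brain 1, and PDGFB tumor 4 close to NRAS tumor 3. Pde10a was at 20.1, 33.5 and 72.6 FPKM in normal brain, at 3.34, 6.90, 5.92 and 3.37 FPKM in NRAS tumors, and at 14.2, 6.74, 7.81 and 4.14 FPKM in PDGFB tumors. Here 3 of the 4 PDGFB tumors lay within or near the NRAS range.

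**Figure D1:**
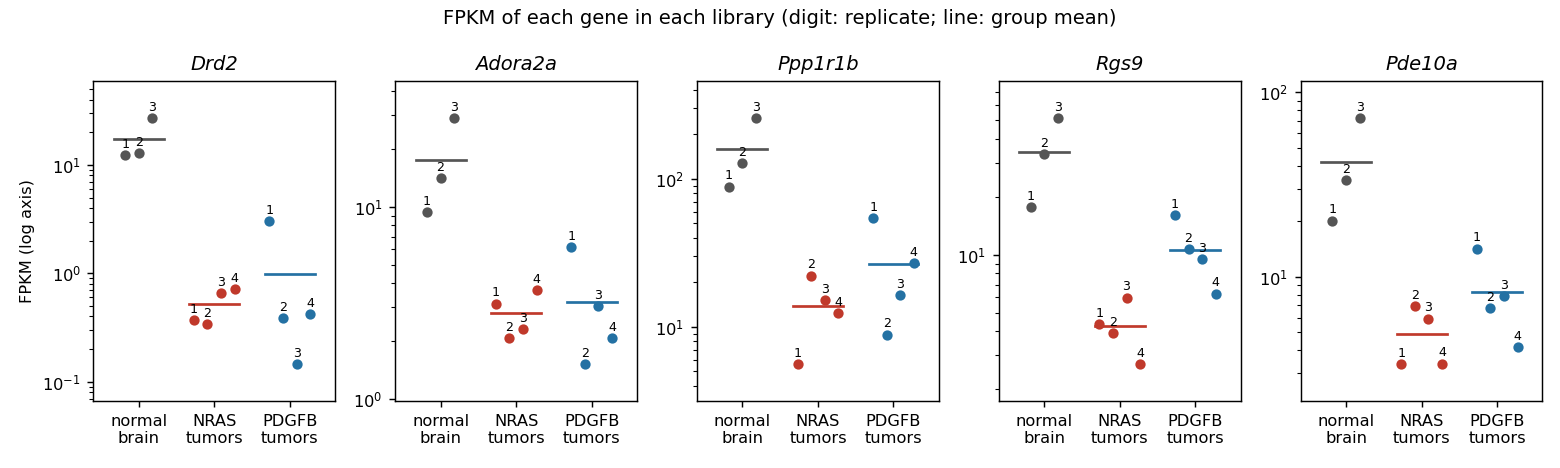
FPKM of the 5 genes in each library on a logarithmic axis, by group (3 normal brains, 4 NRAS tumors and 4 PDGFB tumors), with digits giving the library number and lines the group means. For each gene all 8 tumor libraries sit below the 3 normal brains, and normal brain 3 and PDGFB tumor 1 are the highest of their groups. Of all genes tested, 31.9% lay below normal brain without overlap in NRAS tumors and 32% in PDGFB tumors.

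Group means followed the same order for all 5 genes, with normal brain highest, PDGFB tumors next and NRAS tumors lowest, but without PDGFB tumor 1 the PDGFB means of Drd2 (0.315 FPKM) and Adora2a (2.22 FPKM) were below those of NRAS tumors. By length-scaled level in normal brain, Ppp1r1b (158 ± 88.5 FPKM, SD, n = 3) was followed by Pde10a (42.1 ± 27.3), Rgs9 (34.1 ± 16.9), Adora2a (17.4 ± 10.2) and Drd2 (17.4 ± 8.40). Within each normal brain Ppp1r1b was 3.55 to 4.40 times Pde10a, and Rgs9 was 1.77 to 2.37 times Adora2a. Pde10a was 1.01 to 1.42 times Rgs9 and Adora2a 0.764 to 1.09 times Drd2, so the last pair kept no order. In NRAS tumors the order was Ppp1r1b (13.9 ± 6.89 FPKM, n = 4), Pde10a (4.88 ± 1.81), Rgs9 (4.24 ± 1.36), Adora2a (2.80 ± 0.737) and Drd2 (0.521 ± 0.192). In PDGFB tumors Rgs9 (10.6 ± 4.09 FPKM, n = 4) stood above Pde10a (8.22 ± 4.27), below Ppp1r1b (26.6 ± 19.8) and above Adora2a (3.20 ± 2.07) and Drd2 (0.992 ± 1.36).

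In NRAS tumors against normal brain, the 5 members were called lower by limma on log2(FPKM + 1), with Benjamini-Hochberg adjustment over 14491 genes. Of all genes tested, 62.3% passed, 30.3% as lower and 32% as higher, and for 31.9% the tumors lay below normal brain without overlap. Adora2a, Ppp1r1b, Rgs9 and Pde10a reached 1 FPKM in all 11 libraries, whereas Drd2 did so in 4, the 3 normal brains and PDGFB tumor 1, and passed the filter of 1 FPKM in 3 libraries through normal brain. The count of 5 is thus not support for a change. Drd2 dropped the most, with a log2 fold change of -3.51 ± 0.41 (SE, adjusted p = 7.79e-05), and its mean FPKM was 33.4-fold lower. Only 0.0690% of genes tested had a log2 fold change as low or lower. Ppp1r1b came next at -3.41 ± 0.58 (adjusted p = 0.000649) and was at the 0.0828 percentile. Pde10a (-2.73 ± 0.44, adjusted p = 0.000478) and Rgs9 (-2.66 ± 0.36, adjusted p = 0.000198) were near each other, and Adora2a fell least, at -2.15 ± 0.40 (adjusted p = 0.000973). The first place of Drd2 on the log2 scale was not stable. At a pseudocount of 5 in place of 1, Drd2 (-1.96) fell less than Ppp1r1b (-3.05), Pde10a (-2.11) and Rgs9 (-2.00). Without NRAS tumor 2, Ppp1r1b (-3.67) also fell more than Drd2 (-3.45). In bulk tissue, fewer cells of a type and less RNA per cell cannot be told apart.

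In PDGFB tumors against the same normal brains, the 5 members also passed as lower, where 58.5% of genes passed, 29.2% as lower and 29.3% as higher, and 32% lay below normal brain without overlap. Drd2 was again lowest, with a log2 fold change of -3.32 ± 0.41 (adjusted p = 9.26e-05) and a mean FPKM that was 17.5-fold lower. Without PDGFB tumor 1 the mean was 55.1-fold lower. Ppp1r1b fell by 2.67 ± 0.58 on the log2 scale (adjusted p = 0.00251), Pde10a by 2.14 ± 0.44 (adjusted p = 0.00177) and Adora2a by 2.11 ± 0.40 (adjusted p = 0.00104). Rgs9 fell least, by 1.54 ± 0.36 (adjusted p = 0.00400), and 9.0% of genes tested had a fold change as low or lower. At a pseudocount of 5 in place of 1, Ppp1r1b (-2.44) fell more than Drd2 (-1.86). With the number series of the sample titles as a covariate, Rgs9 (-1.52, adjusted p = 0.0843) and Pde10a (-2.05, adjusted p = 0.0609) no longer passed. One series of title numbers holds the 3 normal brains with NRAS tumors 1 and 2, the other NRAS tumors 3 and 4 with the PDGFB tumors. PDGFB tumors and normal brain thus share no series, and no comparison of them within a series exists. What the numbers stand for is not given.

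Between the models, only Rgs9 passed, with a log2 difference of NRAS minus PDGFB of -1.12 ± 0.34 (adjusted p = 0.0307) and a mean FPKM 2.51-fold higher in PDGFB tumors. Of all genes tested, 26.6% passed in this comparison, 12.2% as lower and 14.3% as higher in NRAS tumors, and 11.6% were lower without overlap, as Rgs9 was. Ppp1r1b (-0.75 ± 0.54, adjusted p = 0.340) and Pde10a (-0.59 ± 0.41, adjusted p = 0.319) had differences of the same sign that did not pass. Drd2 (-0.20 ± 0.38, adjusted p = 0.738) and Adora2a (-0.045 ± 0.37, adjusted p = 0.941) lay near 0, and both turned positive without PDGFB tumor 1 (0.21 and 0.25). The Rgs9 call was lost when NRAS tumor 2 or 4 or PDGFB tumor 1, 2 or 3 was left out (adjusted p up to 0.0871), although the difference kept its sign, from -1.33 to -0.92. Within title numbers 2038 to 2046 it was -1.13 with adjusted p = 0.0791.

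**Figure D2:**
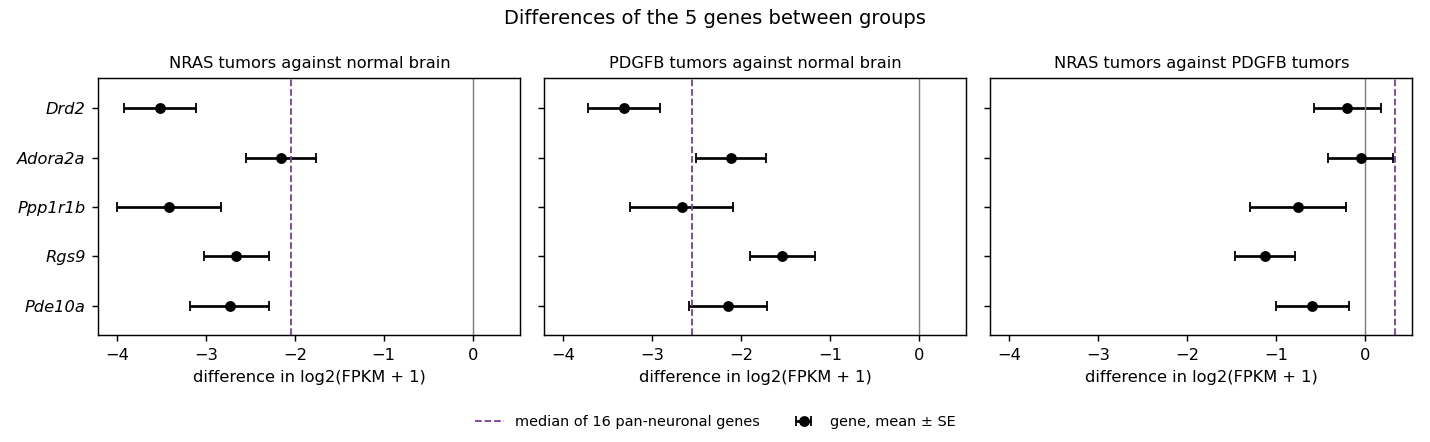
Log2 differences of the 5 genes on the log2(FPKM + 1) scale in the 3 comparisons, with bars of 1 standard error from limma and a dashed line at the median of the 16 pan-neuronal genes (-2.04, -2.55 and 0.34). Against normal brain all lie below 0, with Drd2 at -3.51 in NRAS and -3.32 in PDGFB tumors, and between the models Rgs9 is farthest from 0 at -1.12.

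Members differed between normal brains as well, which bears on each fold change. All 5 were lowest in normal brain 1 and highest in normal brain 3. Normal brain 3 held 2.21 times the Drd2 of normal brain 1, 3.10 times the Adora2a, 2.91 times the Ppp1r1b and the Rgs9, and 3.61 times the Pde10a, while the median ratio of 16 mature pan-neuronal genes was 1.09. Normal brain 3 is the only library labelled FVB, so its strain label and its levels cannot be told apart. Regional markers also differed between these libraries. Normal brain 1 held 32.7 FPKM of Th and 22 FPKM of Slc6a3 (named after its values were seen), genes of dopamine neurons, where normal brains 2 and 3 held 2.52 and 1.95 FPKM of Th. The summed FPKM of 7 hypothalamic genes was 198, 16.4 and 71.2 in normal brains 1 to 3 and 0.708 to 2.78 in tumors, with 3 to 5 of the 7 listed at 0 in each tumor. The summed FPKM of 7 thalamic and midbrain genes was 198, 61.3 and 204 in normal brain and 14.8 to 83.7 in tumors. Their part in the members' differences was not tested. Without normal brain 3 and PDGFB tumor 1 together, the 5 members still passed as lower in both models.

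**Figure D3:**
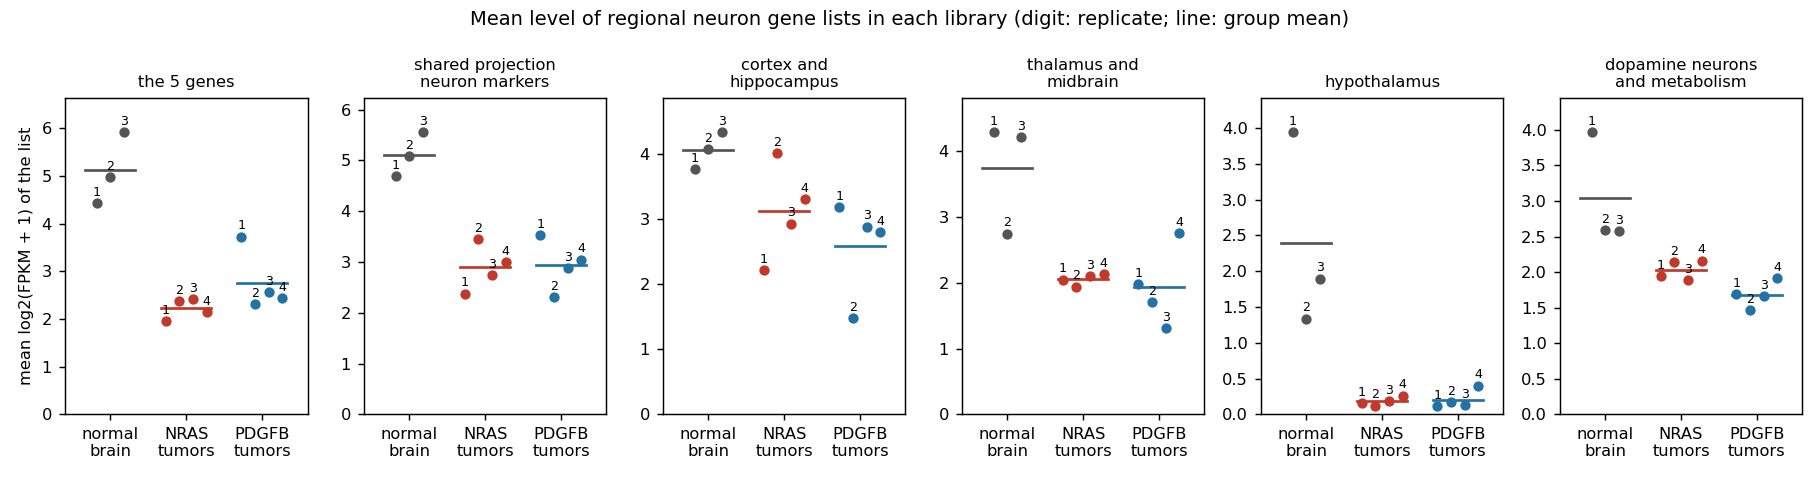
Mean log2(FPKM + 1) of marker lists of neurons of several brain regions, and of the 5 genes, in each library, by group, with digits giving the library number and lines the group means. Hypothalamic genes averaged 3.95, 1.34 and 1.90 in normal brains 1 to 3 and at most 0.40 in a tumor, and markers shared by projection neurons averaged 4.68, 5.08 and 5.56 in normal brain.

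In the 2 pairs that the titles match, normal brain 1 held 36.1 times the Drd2 of NRAS tumor 2 but only 4.48 times the Adora2a, 3.99 times the Ppp1r1b, 4.51 times the Rgs9 and 2.92 times the Pde10a, beside a median ratio of 2.19 for pan-neuronal genes. Normal brain 3 held 8.96 times the Drd2 of PDGFB tumor 1, 4.70 times the Adora2a, 4.77 times the Ppp1r1b, 3.18 times the Rgs9 and 5.12 times the Pde10a, beside 4.17 for pan-neuronal genes. Drd2 thus had the largest ratio of the 5 in both pairs, but in NRAS tumor 2 it was at 0.339 FPKM, which rests on few reads. No test can be made on 1 pair per model.

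Genes that neurons use in general fell too, where 30.3% of all genes tested passed as lower in NRAS and 29.2% in PDGFB tumors. All 16 pan-neuronal genes, among them Snap25 and Syt1 of synaptic vesicle release and the neurofilament gene Nefl, passed as lower in both models, with a median log2 fold change of -2.04 in NRAS and -2.55 in PDGFB tumors, where the median of all genes tested was 0.014 and 0.040. Their mean log2(FPKM + 1) was 7.48 to 7.70 in normal brain, 4.52, 6.46, 5.33 and 5.64 in NRAS tumors and 5.65, 3.78, 5.21 and 5.66 in PDGFB tumors. NRAS tumor 2 kept the most neuronal RNA of all tumors, and of the NRAS group the most Ppp1r1b and Pde10a, but the least Drd2 and Adora2a. PDGFB tumor 2 kept the least neuronal RNA of all tumors. In the PDGFB group it had the lowest Ppp1r1b and Adora2a and the second lowest Drd2 and Pde10a, but the second highest Rgs9.

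Each gene was therefore also compared after its library's pan-neuronal mean was subtracted. On that scale Drd2 was at -1.41 ± 0.62 (SE) in NRAS tumors against normal brain (adjusted p = 0.0383, limma) and Ppp1r1b at -1.31 ± 0.53 (adjusted p = 0.0271). They were among 17 genes called lower, 0.117% of those tested, whereas 81.1% were called higher. The adjustment ran over all genes, most of them called higher, so it does not limit false calls among the 17. On log2(FPKM + 1) a gene that is low in normal brain has little room to fall further than pan-neuronal genes, which limits this count. Adora2a (-0.049, adjusted p = 0.944), Rgs9 (-0.55, adjusted p = 0.420) and Pde10a (-0.63, adjusted p = 0.340) did not pass, so their differences were not distinguished from that of neuronal RNA. Leaving out any one of the 7 libraries except NRAS tumor 1 took the Drd2 call away (adjusted p up to 0.165), and leaving out normal brain 2, normal brain 3 or NRAS tumor 4 took away that of Ppp1r1b (adjusted p up to 0.196). The direct pathway peptide gene Tac1 (-1.92) and the projection neuron gene Scn4b (-1.30) were among the same 17.

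In PDGFB tumors no member passed on this scale, where 0.0414% of genes were called lower and 88.2% higher. Drd2 was at -0.80 ± 0.62 (adjusted p = 0.220), Ppp1r1b at -0.15 (adjusted p = 0.791), Adora2a at 0.41 (adjusted p = 0.530), Pde10a at 0.37 (adjusted p = 0.563) and Rgs9 at 0.98 ± 0.64 (adjusted p = 0.146). Drd2 passed with a pseudocount of 0.1 (-2.04, adjusted p = 0.0177) or with the median of the pan-neuronal genes in place of the mean (-1.25, adjusted p = 0.0449). The same limit of the adjustment holds for calls as lower here. Between the models, where 0.324% of genes passed as lower and 0.669% as higher in NRAS tumors, no member passed. Rgs9 was at -1.53 ± 0.59 (adjusted p = 0.245) and Ppp1r1b at -1.16 ± 0.50 (adjusted p = 0.331).

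**Figure D4:**
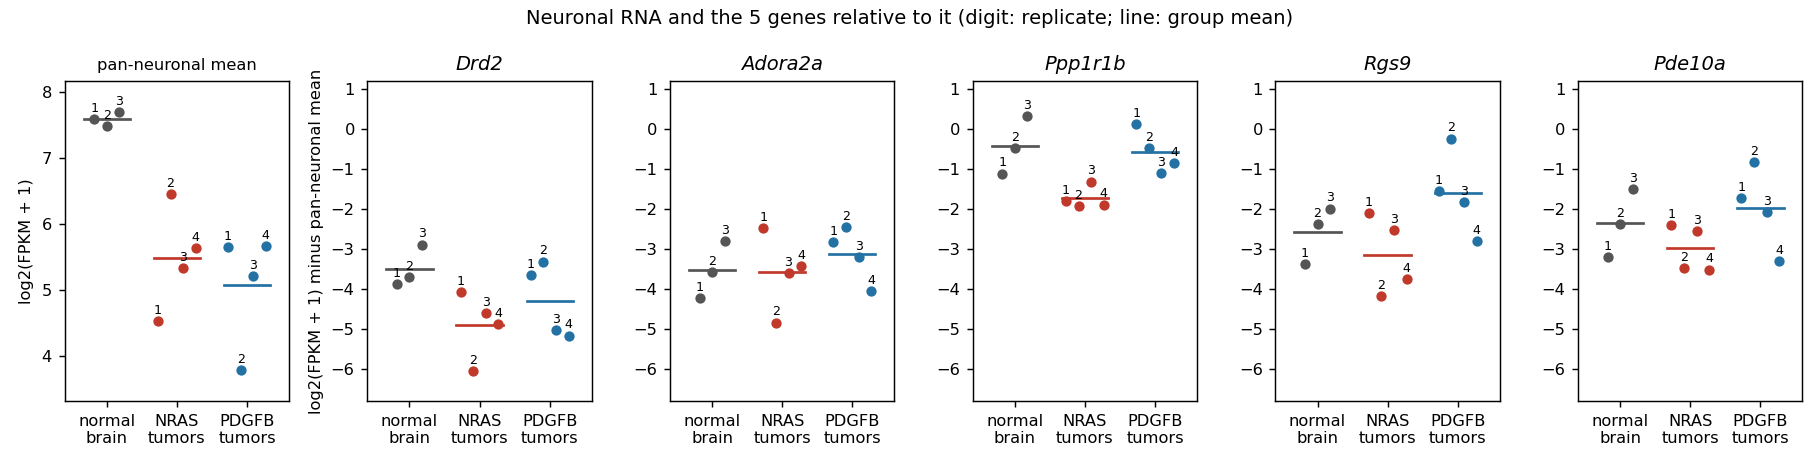
Mean log2(FPKM + 1) of 16 pan-neuronal genes in each library (first panel) and each of the 5 genes minus that mean (other panels), by group, with digits giving the library number and lines the group means. NRAS tumor 2 has the highest pan-neuronal mean among tumors (6.46) and the lowest relative Drd2 (-6.04), and PDGFB tumor 2 the lowest mean (3.78) and the highest relative Rgs9 (-0.24).

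Among themselves the members kept close proportions in normal brain. As log2 FPKM minus the mean of the 5, Ppp1r1b was at 2.07 to 2.11 and Adora2a at -1.13 to -1.04 over the 3 normal brains. Drd2 was at -1.24 to -0.74 in normal brain, at -3.31 to -2.13 in NRAS tumors and at -4.60 to -1.97 in PDGFB tumors, so it took a smaller share in every tumor. Adora2a moved the other way in NRAS tumors (-0.73 to 0.34), and Rgs9 in PDGFB tumors (0.45 to 1.71, against -0.22 to 0.14 in normal brain). Mean shares of Pde10a were 0.14 in normal brain, 0.55 in NRAS and 0.67 in PDGFB tumors, and those of Ppp1r1b 2.10, 1.97 and 2.19. Rgs9 also rose on average in NRAS tumors and Adora2a in PDGFB tumors. Each share is taken from the mean of the 5, so a smaller share of Drd2 by itself raises the others. These shares describe the libraries and were not tested.

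The genes whose levels ran most like each member were searched over the 11 libraries among 11434 genes. The points include the gap between normal brain and tumors, and over the 8 tumors alone r was lower for every gene named here. For Drd2 they were Syndig1l, Actn2, Gpr52, Gpr6 and Tctn3 (Pearson r = 0.985 to 0.965; 0.838 to 0.565 over the tumors), of which 4 are in the projection neuron lists. For Adora2a they were Gpr52, Actn2, Drd2, Drd1 and Syndig1l (0.975 to 0.950; 0.872 to 0.605). Genes whose levels ran like Ppp1r1b included Ptprd, Pcdhac2, Shank3 and Atp8a2 (0.972 to 0.962; 0.896 to 0.851). Rgs9 ran most like Soga3, Myh10, Jmjd4, Cnst and Pde10a (0.966 to 0.953; 0.943 to 0.821), and Pde10a like Gpcpd1, Ppp1r9a, Cnst, Pik3r4 and Atrn (0.979 to 0.973; 0.941 to 0.830). Between members, r ran from 0.849 (Adora2a and Rgs9) to 0.961 (Drd2 and Adora2a). In tumors Drd2 was at 0.144 to 0.712 FPKM except in PDGFB tumor 1 (3.02 FPKM), which limits its r over the tumors.

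Other markers of the same neurons fell in both models, as neuronal RNA in general did. The list medians stand beside -2.04 and -2.55 for pan-neuronal genes and -2.22 and -2.38 for interneuron genes (NRAS, then PDGFB tumors). Counts here and in the lists below stand beside the shares of all genes tested. In NRAS tumors 30.3% passed as lower and 32% as higher, in PDGFB tumors 29.2% and 29.3%. Between the models 12.2% were lower and 14.3% higher in NRAS tumors. Of 8 direct pathway genes, 7 passed as lower and 0 as higher in NRAS tumors (median log2 fold change -1.84), and 6 passed as lower and 1 as higher in PDGFB tumors (-1.99). Drd1, the D1 receptor, had 13.2 ± 6.73 FPKM in normal brain, 1.31 ± 0.477 in NRAS and 1.64 ± 1.23 in PDGFB tumors. Tac1, which encodes substance P, had 57.2 ± 6.91, 2.82 ± 1.75 and 3.34 ± 3.19 FPKM. The exception was Eya1, a transcription cofactor (named after its values were seen), at 3.22 FPKM in normal brain and 9.28 in PDGFB tumors (log2 fold change 1.16, adjusted p = 0.0108). All 4 indirect pathway genes passed as lower in both models (medians -2.55 and -2.31). Penk, the enkephalin precursor, went from 186 ± 49.1 FPKM to 29.0 ± 10.8 in NRAS and 15.5 ± 15.9 in PDGFB tumors. The receptor gene Gpr52 went from 8.94 to 0.428 and 0.782 FPKM, and Gpr6 from 5.76 to 0.208 and 0.488 FPKM. Group means of Gpr52 and Gpr6 reached 1 FPKM in normal brain only. Their passing of the filter thus leaned on normal brain, as for Drd2, and the count of 4 is not support for a change. Of 20 markers shared by both pathways, 19 passed as lower in each model (median -2.42 in both), including Scn4b, a sodium channel subunit (52.8, 4.07 and 4.19 FPKM). Rarb, a retinoic acid receptor named after its values were seen, did not pass in either (9.67, 5.49 and 13.2 FPKM).

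Of the other dopamine and adenosine receptors, 4 of 7 passed the filter. In NRAS tumors 2 were lower and 1 higher, and in PDGFB tumors 2 were lower. Adora1 fell from 52.3 to 24.8 FPKM in NRAS tumors (log2 fold change -1.13, adjusted p = 0.0395) and was at 29.5 FPKM in PDGFB tumors (-0.91, adjusted p = 0.0911). Adora3, the A3 receptor, rose in NRAS tumors, from 0.403 to 2.69 ± 1.27 FPKM (1.33, adjusted p = 0.00167), and was at 0.403 FPKM in PDGFB tumors. Beside this, 8 of 9 myeloid genes were higher in NRAS tumors and 1 of 9 in PDGFB tumors, with summed levels of 104 to 121 FPKM in normal brain, 321 to 952 in NRAS and 80.4 to 234 in PDGFB tumors, and no gene of the list at 0. Of 7 lymphocyte genes, 5 were higher in NRAS tumors and 1 was lower in PDGFB tumors, with sums of 1.84 to 7.69, 6.14 to 137 and 0.577 to 2.38 FPKM. In each normal brain 3 of them, Cd3e and Cd3d among them, were at 0. The part of these cells in the values of Adora3 and of Adora2a, which leukocytes also express, was not tested.

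Of 24 genes of G proteins, adenylyl cyclases and protein kinase A, 17 passed as lower and 3 as higher in NRAS tumors (median log2 fold change -1.24), and 14 and 3 in PDGFB tumors (-0.93). The largest falls were those of Adcy5 and Gnal in NRAS tumors and of Gng7 and Gnal in PDGFB tumors. All of these are also among the shared projection neuron markers counted above, so the lists are not separate. Adcy5, the main striatal cyclase, went from 53.2 ± 18.0 FPKM to 5.17 ± 2.24 in NRAS and 10.1 ± 3.97 in PDGFB tumors. Gnal, the stimulatory alpha subunit of the D1 receptor and of the Adora2a product, went from 62.2 ± 15.1 to 7.83 ± 2.92 and 8.69 ± 3.29 FPKM, and its partner Gng7 from 79.9 to 13.3 and 10.2 FPKM. Higher, and named after their values were seen, were the inhibitory alpha subunits Gnai2 (log2 fold change 1.25 and 1.16) and Gnai3 (1.53 and 1.53) in both models, Adcy7 in NRAS tumors (1.61) and Prkar2a in PDGFB tumors (0.60).

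Among 15 of 16 genes of protein phosphatase 1 and the enzymes that act on DARPP-32, 11 passed as lower and 2 as higher in NRAS tumors (median -1.09), and 9 and 3 in PDGFB tumors (-0.92). Cdk5r1, the activator of the kinase Cdk5, fell by 2.26 and 2.15 on the log2 scale, and Ppp3ca, a catalytic subunit of calcineurin, by 1.29 and 1.57. Ppp1r9a, a neuronal scaffold of phosphatase 1, fell by 1.72 and 1.36. The catalytic subunits Ppp1ca (0.44 and 0.68) and Ppp1cc (0.37 and 0.62), named after their values were seen, were higher in both models, and Csnk2a1 in PDGFB tumors (0.70).

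Of 18 RGS family genes and partners tested out of 21, 9 were lower and 3 higher in NRAS tumors (median -0.65), and 12 were lower and 0 higher in PDGFB tumors (-1.28). Gnb5 and Rgs7bp, which hold RGS9 in a stable membrane complex (both named after their values were seen), fell in both models, Gnb5 from 67.9 to 23.8 and 20.8 FPKM and Rgs7bp from 58.3 to 17.9 and 17.0 FPKM. Neither passed between the models (adjusted p = 0.650 and 0.876). Between the models 6 of these 18 genes were higher in NRAS tumors and 0 lower, the opposite sign to Rgs9. Rgs1, an RGS gene of leukocytes, was at 0.188 FPKM in normal brain, 12 ± 8.55 in NRAS and 1.32 in PDGFB tumors, and Rgs16, named after its values were seen, at 17.7, 86.8 ± 61.3 and 6.73 FPKM.

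Of 17 phosphodiesterases tested out of 23, 9 were lower and 2 higher in NRAS tumors (median -0.76), and 8 lower and 4 higher in PDGFB tumors (-0.63). Pde1b, which is rich in the striatum, fell most, from 94.5 ± 27.4 to 15.8 FPKM in NRAS and 15.6 FPKM in PDGFB tumors. Pde2a fell by 1.47 and 2.16 on the log2 scale. Pde3a rose from 0.687 to 6.22 and 6.71 FPKM and Pde3b from 3.57 to 15.7 and 11.4 FPKM. Between the models, 3 of 17 were lower in NRAS tumors and 0 higher: Pde7b, with 3.68 FPKM in NRAS and 10.6 in PDGFB tumors, Pde8a (4.66 and 11.1) and Pde6d (38.5 and 54.7), named after their values were seen.

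**Figure D5:**
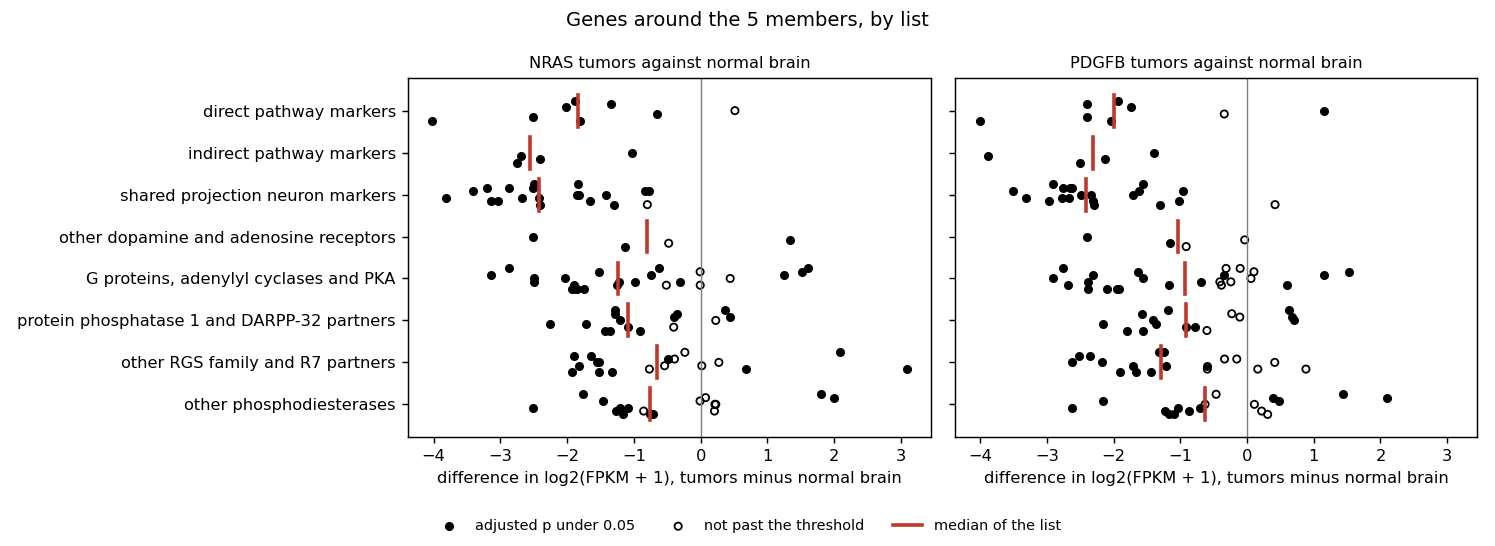
Log2 fold changes against normal brain, on the log2(FPKM + 1) scale, of the tested genes of the projection neuron and signaling lists, with 1 point per gene (filled where adjusted p is under 0.05) and a red line at each list's median. Medians run from -2.55 (indirect pathway) to -0.65 (RGS family) in NRAS tumors and from -2.42 (shared markers) to -0.63 (phosphodiesterases) in PDGFB tumors.

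Among genes of dopamine neurons and dopamine metabolism, 7 of 9 were tested. In NRAS tumors 4 were lower and 2 higher, and in PDGFB tumors 5 were lower and 0 higher. Th, the enzyme that limits dopamine synthesis, was at 12.4 FPKM on average in normal brain, most of it from normal brain 1, and at 0.456 and 0.501 FPKM in the tumors. Ddc fell from 11.7 to 1.28 and 0.590 FPKM.

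Between the models, oligodendrocyte progenitor genes were higher in PDGFB tumors, as Rgs9 was, but unlike Rgs9 they were not highest in normal brain. Against normal brain, 5 of 6 were higher in PDGFB tumors (median 3.55) and 4 in NRAS tumors (1.15), and 5 were lower in NRAS than in PDGFB tumors. Their summed level was 111 to 191 FPKM in normal brain, 153 to 741 in NRAS and 1268 to 1561 in PDGFB tumors, with none at 0. Their part in the Rgs9 difference was not tested.

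Depth and yield differed between the groups. Relative depth read from low values was 0.776 to 0.814 in normal brain, 0.850 to 0.890 in PDGFB and 0.932 to 1 in NRAS tumors. In a library 13345 to 13493, 12705 to 13148 and 13452 to 13923 genes reached 1 FPKM. The part of depth in the results was not tested. Small RNA genes took 10.5% to 42.7% of the FPKM sum. Nras was at 82.0 to 154 FPKM in NRAS tumors and at 13 to 42.9 elsewhere, and Pdgfb at 745 to 1564 FPKM in PDGFB tumors and at 5.15 to 7.80 elsewhere, as labelled. Other marker lists behaved as follows, with counts as higher and lower in NRAS and then in PDGFB tumors against normal brain. Proliferation genes were 5 and 0 of 5 in both. Myelin genes were 0 and 7, then 0 and 6 of 7, astrocyte genes 1 and 2, then 1 and 3 of 7, endothelial genes 4 and 1, then 2 and 2 of 8, and choroid plexus genes 0 and 5 of 6 in both. Interneuron genes were 0 and 10 of 11 in both, cortical genes 1 and 1, then 0 and 5 of 9, thalamic and midbrain genes 0 and 5, then 0 and 6 of 7, cerebellar genes 0 and 2 of 2 tested in both, and hypothalamic genes 0 and 1 of 2 tested in both.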

How the data were processed

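Illumina libraries were made from 11 tissue samples, per the labels' protocols. Expression came as FPKM (scaled by transcript length and library total), in 1 table deposited by the authors; the submitters' processing notes name TopHat2 2.0.13, Cufflinks 2.2.1 and mm10. The settings, and the gene annotation, were not given in the sources used here. Of 24347 entries, 27 with names turned into dates were left out. Without read counts, depth is known only between libraries. A model with 1 mean for each group was fitted to all libraries on log2(FPKM + 1) (limma 3.58.1 in R 4.3.3; lmFit, contrasts.fit, eBayes with trend), for 14491 genes with at least 1 FPKM in at least 3 libraries, with two-sided p-values adjusted over all of them by Benjamini and Hochberg and a threshold of 0.05. Changes of low genes are understated on this scale. The same fit was run after each library's mean over 16 pan-neuronal genes was subtracted. On simulated data for NRAS tumors against normal brain the first fit, on 14491 genes, recovered 49% of 2-fold and 90% of 4-fold changes. Of its calls 10.9% were false, against 3.31% for PDGFB tumors against normal brain and 2.56% between the models. The simulation changed only a small part of the genes, whereas 62.3% passed for NRAS tumors against normal brain in the data. These shares thus do not carry over to the data.

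The members and lists were chosen with earlier results of these data known. Some lists share genes. Adcy5, Gng7, Gnal, Pde1b and Rgs7bp also count as shared projection neuron markers, and Drd1 counts both as a direct pathway gene and as a receptor. Named were the members, per list up to 4 called genes with the largest change against normal brain (then the most abundant), of which some are printed, and per member the 5 genes with the highest Pearson r among tested genes of at least 5 FPKM in a group mean, without predicted and small RNA genes. Other genes are marked as named after their values were seen. Positions and promoters are from RefSeq, and motifs were matched on both strands. Alternatives covered pseudocount, filter, scaling, title series, replicate block and each library left out. One gene that the rule names is not reported here.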

Additional observations from a re-analysis of the deposited data

Results flagged for a closer look

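Drd2 in PDGFB tumor 1 stood far from the rest of its group, at 3.02 FPKM where the other 3 PDGFB tumors had 0.144 to 0.419 FPKM. Its gap to the nearest of them was 0.905 of the whole range of the 4 tumors, above the 95% critical value of Dixon's test for 4 samples. The other 4 genes were also highest in that tumor within its group, though none of them by such a gap. Over 20 groups checked, chance gives about 1 such result in 20, and 1 was seen. Without PDGFB tumor 1 the sign of the Drd2 difference between the models changed, and the call against normal brain was kept.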

How the results depend on the processing

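Against normal brain, the 5 members stayed lower and past the threshold in NRAS tumors under all settings tried, as they did in PDGFB tumors except with a covariate for the title number series (Rgs9 -1.52, Pde10a -2.05). That covariate left 4768 genes past the threshold for PDGFB tumors against normal brain in place of 8470. It turned Adora2a between the models to 0.024, as did the fit within title numbers 2038 to 2046, and Rgs9 was then at -1.13 in both, no longer past the threshold, nor was it with a pseudocount of 5 (-0.74). That pseudocount also made the fall of Ppp1r1b against normal brain larger than that of Drd2 in both models. Leaving out normal brain 3 and PDGFB tumor 1 together, an alternative chosen after seeing the data, left 2394 genes between the models in place of 3852, with Drd2 at 0.21, Adora2a at 0.25 and Rgs9 at -0.92. Relative to pan-neuronal genes it gave -1.11 for Drd2, -0.94 for Ppp1r1b (neither past the threshold) and 0.32 for Adora2a in NRAS tumors. In PDGFB tumors the median of the pan-neuronal genes gave -1.25 for Drd2, -0.046 for Adora2a and -0.080 for Pde10a, and a pseudocount of 0.1 gave -2.04 for Drd2. The causes were not tested.

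With 1 library left out at a time, the log2 differences between the models ran from -1.33 to -0.92 for Rgs9, from -0.25 to 0.25 for Adora2a and from -0.40 to 0.21 for Drd2. Relative to pan-neuronal genes they ran in NRAS tumors against normal brain from -1.68 to -1.03 for Drd2, from -1.65 to -0.94 for Ppp1r1b and from -0.42 to 0.37 for Adora2a, in PDGFB tumors from -0.047 to 0.81 for Pde10a and from -0.49 to 0.22 for Ppp1r1b, and between the models from -1.93 to -1.08 for Rgs9 (past the threshold only without NRAS tumor 1, adjusted p = 0.0493). A replicate block left 8206, 7835 and 3249 genes past the threshold and changed no call of a member. Same-numbered libraries did not deviate together (correlations from -0.499 to 0.158), so the numbers were not taken as pairs. The pairs named in the titles had -0.083 and 0.13, and a random block for them changed no call of a member. Leaving small RNA genes out of the totals moved the median of all genes from 0.014 to -0.12 in NRAS and from 0.040 to -0.080 in PDGFB tumors and changed no call of a member. Low values limit Drd2 in tumors most.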

Other observations

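Of the 17 called lower in NRAS tumors relative to pan-neuronal genes and the 6 in PDGFB tumors, 4 were on both lists: Cartpt, Calb2, Tac1 and Htr2c. Genes low in normal brain have little room to be called on this scale, and the 17 include Ttr of the choroid plexus and the small RNA genes Mir1954 and Mir1901. As most genes were called higher, the adjustment does not limit false calls among the 17 or the 6. Both comparisons share the same 3 normal brains, so the lists are not independent, and these genes were named after their values were seen. Cartpt, a peptide precursor, was at 40.4 ± 40.6 FPKM in normal brain (SD, n = 3), 0.793 in NRAS and 0.705 in PDGFB tumors (means, n = 4). Calb2, the calcium buffer calretinin, was at 80.1, 3.38 and 3.98 FPKM, and Htr2c, the serotonin 2C receptor, at 28.5, 2.04 and 1.06 FPKM. Penk was at -1.37 in PDGFB tumors on this scale (adjusted p = 0.0414, limma), and its difference between the models did not pass (0.78, adjusted p = 0.615). Pcp4, a calmodulin regulator also named after its values were seen, was lower in NRAS tumors on the same scale, at 785 FPKM in normal brain and 64.3 in those tumors.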
